A study of Mus musculus with 8 samples.

Results

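Clgn, Calr3, Hspa2, Hspa1l, Hspa4l, Hsf1 and Hsf2 are 7 mouse genes for chaperones and heat shock factors of the testis. Every non-control probe that the array files name for one of these genes was taken, which gave 14 of the 41174 probes and 7 of the 27670 gene symbols or transcript names on the array. The RNA of whole testes, taken from male pups on postnatal day 8, was read on 1-color Agilent arrays of the mouse genome. There were 4 biological replicates of wild type and 4 of VRK1-deficient testes, with 1 array each. VRK1 is a protein kinase of proliferating cells. The mutant mice descended from 1 embryonic stem cell clone with a gene trap in an intron of Vrk1 and were backcrossed to C57BL/6, so all tissues of these mice carry the allele and not germ cells alone. The wild type mice carry no engineered allele that the labels name. The comparison shows which of these genes differed in level between the testes of both genotypes while the first wave of spermatogenesis was beginning.

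Male germ cells make their own versions of common chaperones. Calmegin (Clgn) and calreticulin 3 (Calr3) are the germ cell relatives of calnexin and calreticulin, the lectins that hold new glycoproteins in the endoplasmic reticulum until they are folded, and both are needed for sperm surface proteins of the ADAM family. HSPA2 is the HSP70 protein of spermatocytes, where it binds the synaptonemal complex and activates CDK1, and HSPA1L is the HSP70 protein of spermatids. HSPA4L is an HSP110 protein, a nucleotide exchange factor that resets HSP70. HSF1 and HSF2 are transcription factors that bind heat shock elements, HSF1 chiefly under stress and HSF2 during the development of germ cells.

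Levels are given as log2 of the background-subtracted signal over the 75th percentile of the array, so a level of 0 equals that percentile. A difference is always VRK1-deficient minus wild type on that log2 scale. The median difference over all tested probes was 0.041, and it went to -0.138 with signals not scaled between arrays, so the sign of differences that small depends on the scaling. The 75th percentile was 642.4 to 850.6 intensity units on the wild type arrays and 548.4 to 745 on the VRK1-deficient arrays. Between 64.2% and 69.5% of spots on wild type arrays and between 63.6% and 64.9% on VRK1-deficient arrays were bright enough to be called well above background by the scanner software. Precision is limited by the number of arrays, 4 for each genotype. Replicates 1 and 2 of each genotype shared slide 1, and replicates 3 and 4 shared slide 2. Array position and genotype cannot be told apart, because wild type took positions 1 and 2 and VRK1-deficient positions 3 and 4 on both slides. The wild type arrays were not alike. Over probes wild type replicate 3 correlated at 0.97 to 0.986 with the other wild type arrays and at 0.963 to 0.976 with the VRK1-deficient arrays. The library labeled wild type replicate 1 was closer to the VRK1-deficient arrays than to its own group. Its correlation over probes was 0.987 to 0.99 with the VRK1-deficient arrays and 0.97 to 0.986 with the other wild type arrays. The values of the tested member probes and the counts of calls in the cell type lists and over the chaperone lists are therefore given with and without it. On this array Vrk1 itself was at wild type height (-0.2, where wild type replicates 2 to 4 had -0.11, 0.59 and 0.35 and the VRK1-deficient arrays had -3.97, -3.68, -3.58 and -4.17). The difference of Vrk1 was -4.00 (limma adjusted p = 0.000135). It was -2.79 with normexp, a background correction by a model of signal and noise (limma adjusted p = 6.11e-06). Vrk1 had 2 probes, and its values are those of A_51_P102339 alone. Where this probe lies relative to the gene trap was not analysed.

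None of the 7 genes passed an adjusted p under 0.05 over the 8 arrays. A probe was tested where 4 or more of the 8 arrays read it well above background, which held for 12 of the 14 probes and for 6 genes, and the 2 probes of Hsf2 were too dim to be tested. Over all 26948 tested probes limma called 3.66%, 1.99% as lower and 1.67% as higher in the mutant. At an unadjusted p under 0.05 the count was 3 of the 6 tested genes (Clgn, Hspa2 and Hspa4l), beside 28.8% of all tested probes. The methods' t-test had a p of at most 0.05 for 3 of the 6 genes as well, beside 26.2% of all tested probes, and called 0 of them after Benjamini-Hochberg adjustment, beside 0.601%. With wild type replicate 1 left out, Clgn, Hspa2 and Hspa4l were called as lower, but 28.4% of all tested probes were then called as well. Leaving out any other array gave 0 calls among the 6 genes, beside 3 to 68 of the 26948 tested probes. With so few calls on the whole array, this 0 does not set the 6 genes apart. The 10th and 90th percentiles of the differences over all tested probes were -0.53 and 0.47, so the differences of Clgn and Hspa4l lay below the first of these and those of the other tested genes between them.

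**Figure D1:**
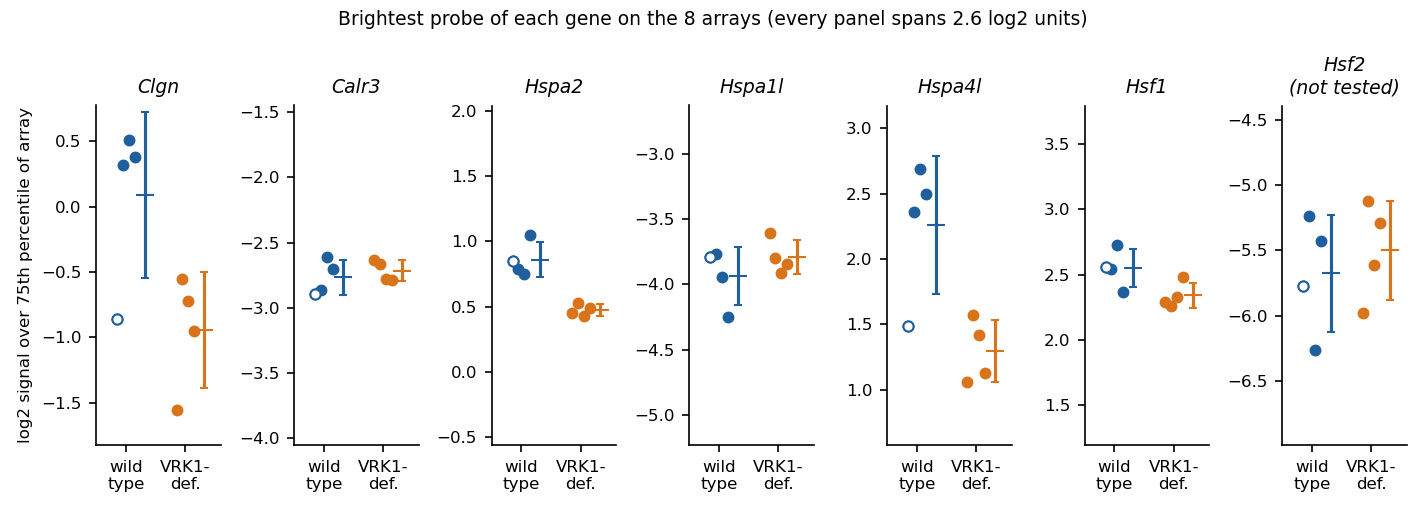
Log2 signal of the brightest probe of each gene, relative to the 75th percentile of its array (vertical axis, log2), on the 4 wild type arrays (blue, replicate 1 open) and the 4 VRK1-deficient arrays (orange), with the mean and SD beside the points. Wild type replicate 1 sits apart from the other wild type arrays for Clgn (-0.86) and Hspa4l (1.49) and among them for Hspa2 (0.85), and only the Hspa2 panel shows no overlap between genotypes.

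Of the 2 lectin chaperones of the endoplasmic reticulum, Clgn had the lowest difference of the 7 genes and Calr3 one near 0. Clgn (probe A_51_P388325, NM_009904, mm7 chr8:82005178-82005237, plus strand) had levels of -0.86, 0.32, 0.51 and 0.38 on wild type replicates 1 to 4 and of -1.56, -0.55, -0.72 and -0.95 on the VRK1-deficient replicates. Wild type replicate 1 lay within the VRK1-deficient range, and the other wild type arrays lay above it. The mean was 0.09 ± 0.64 in wild type and -0.95 ± 0.44 in VRK1-deficient testes (SD, n = 4 each), and the difference was -1.03 (95% interval -1.77 to -0.30, limma adjusted p = 0.0864), or 48.9% of the wild type level. Without wild type replicate 1 it was -1.35 (limma adjusted p = 0.00578). The difference was -0.78 on slide 1 and -1.28 on slide 2. Clgn is among the genes that the study itself listed as lower on these arrays, so its direction is not independent evidence. The same holds for Hsf2bp, Sycp2, Stag3, Mei1, Smc1b and Lin28a, which appear below. Calr3 (probe A_51_P476820, NM_028500, mm7 chr8:70947458-70947517, minus strand) had levels of -2.89, -2.86, -2.61 and -2.70 in wild type and of -2.63, -2.66, -2.78 and -2.79 in VRK1-deficient testes. The arrays of both genotypes were interleaved. Its difference was 0.05 (95% interval -0.20 to 0.30, limma adjusted p = 0.794), and it was 0.23 on slide 1, -0.13 on slide 2 and 0.01 without wild type replicate 1 (limma adjusted p = 0.963).

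Hspa2 was the 1 gene of the 6 tested whose arrays did not overlap between genotypes, as was also so for 16.7% of all tested probes. Its brightest probe (A_52_P176391, NM_008301, mm7 chr12:74364884-74364943, plus strand) gave levels of 0.85, 0.79, 0.75 and 1.05 in wild type and of 0.45, 0.53, 0.43 and 0.49 in VRK1-deficient testes. Wild type replicate 1 stood with the other wild type arrays here. The difference was -0.39 (95% interval -0.63 to -0.14, limma adjusted p = 0.0666), or 76.5% of the wild type level, and the exact two-sided permutation test gave p = 0.0286, the smallest that 4 arrays against 4 allow. It was -0.33 on slide 1, -0.44 on slide 2 and -0.39 without wild type replicate 1 (limma adjusted p = 0.0344). The dimmer Hspa2 probe (A_51_P453149) lay nearer the start of the transcript and had levels of 0.03, 0.11, -0.37 and 0.41 in wild type and of -0.15, -0.16, -0.43 and -0.22 in VRK1-deficient testes. These overlapped, with a difference of -0.28 (95% interval -0.66 to 0.10, limma adjusted p = 0.289), or -0.29 without wild type replicate 1 (limma adjusted p = 0.267).

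Hspa1l (probe A_51_P340747, NM_013558, mm7 chr17:33075774-33075833, plus strand) was read far below the 75th percentile of the array, with levels of -3.79, -3.77, -3.94 and -4.25 in wild type and of -3.61, -3.80, -3.91 and -3.84 in VRK1-deficient testes. It was well above background on all 8 arrays. Its difference was 0.15 (95% interval -0.17 to 0.46, limma adjusted p = 0.505). It was 0.20 without wild type replicate 1 (limma adjusted p = 0.322) and -0.03 with signals not scaled between arrays. The HSP70 genes are close in sequence, and binding of one transcript by the probe of another was not tested. The dimmer Hspa2 probe, the Hspa1l probe and 1 of the 4 Hspa1a probes were designed on the same stretch of these paralogs, and they are shown here because the difference between them is what separates the genes. Capitals mark the 16 of 40 shared positions at which the 3 probes are not all alike.
Hspa2 A_51_P453149: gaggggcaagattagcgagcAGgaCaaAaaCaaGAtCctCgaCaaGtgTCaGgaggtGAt
Hspa1l A_51_P340747: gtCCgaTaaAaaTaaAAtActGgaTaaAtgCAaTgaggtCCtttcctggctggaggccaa
Hspa1a A_52_P52803: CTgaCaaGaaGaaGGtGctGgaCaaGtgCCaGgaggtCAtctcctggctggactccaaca
Over these 40 positions the Hspa2 and Hspa1l probes had 26 bases in common, the Hspa2 and Hspa1a probes 31, and the Hspa1l and Hspa1a probes 28. The Hspa2 and Hspa1l probes gave differences of opposite sign, and neither passed the test.

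Hspa4l, the HSP110 member, had 4 probes on mm7 chromosome 3, plus strand, and all 4 were lower on average in VRK1-deficient testes. The brightest (A_51_P517928, NM_011020, mm7 chr3:40556164-40556223) gave levels of 1.49, 2.36, 2.69 and 2.50 in wild type and of 1.06, 1.57, 1.42 and 1.13 in VRK1-deficient testes. Wild type replicate 1 lay among the VRK1-deficient arrays, and the other wild type arrays lay above all of these. Its difference was -0.97 (95% interval -1.54 to -0.40, limma adjusted p = 0.0607), or 51.0% of the wild type level, and it was -0.62 on slide 1 and -1.33 on slide 2. Without wild type replicate 1 the difference was -1.23 (limma adjusted p = 0.00351). The neighbouring probe A_52_P667923 had levels of 0.63, 1.51, 1.63 and 1.64 in wild type and of 0.24, 0.73, 0.55 and 0.39 in VRK1-deficient testes, a difference of -0.88 (limma adjusted p = 0.0618) that went to -1.12 without wild type replicate 1 (limma adjusted p = 0.00344). The 2 dimmer probes showed smaller differences. That of A_52_P652704 was -0.45 (limma adjusted p = 0.161), and that of A_52_P75568, which was designed on the transcript AK050997, was -0.33 (limma adjusted p = 0.148). On slide 1 they were -0.21 and -0.09, on slide 2 -0.69 and -0.57, and with the normexp correction -0.32 and -0.04 (limma adjusted p = 0.134 and 0.833), so the difference of A_52_P75568 was near 0 under the first and the last of these. With wild type replicate 1 left out, the differences of A_52_P652704 and A_52_P75568 were -0.63 (limma adjusted p = 0.0144) and -0.42 (limma adjusted p = 0.0369). Over the 8 arrays the 4 probes correlated with each other with r from 0.799 to 0.994, the highest between the brightest pair.

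**Figure D2:**
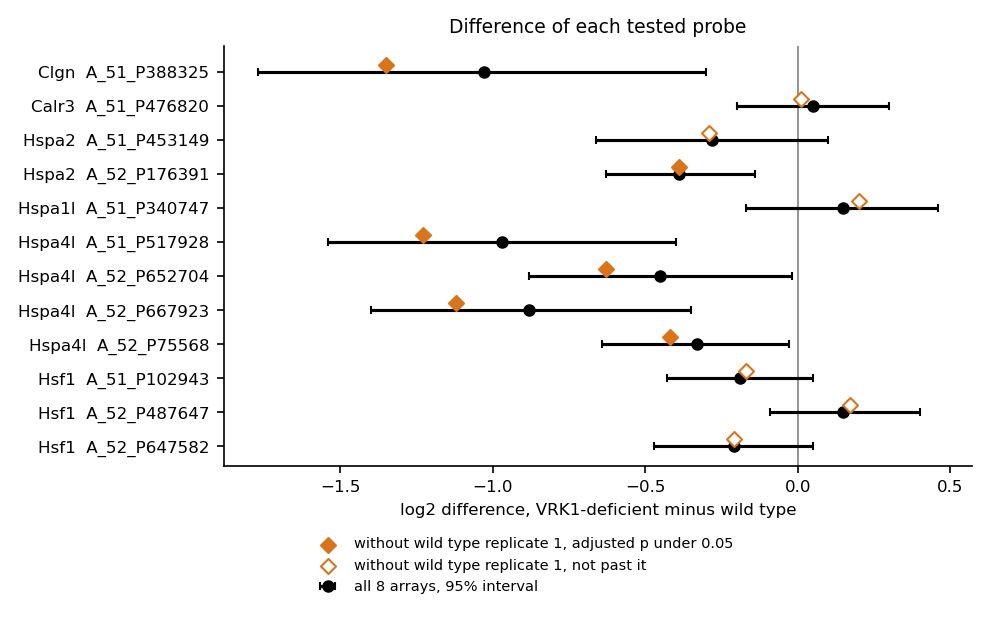
Difference of each of the 12 tested probes (horizontal axis, VRK1-deficient minus wild type, log2) over all 8 arrays (black, with 95% limma interval) and without wild type replicate 1 (diamonds, filled at a limma adjusted p under 0.05). The 4 Hspa4l probes, Clgn and 1 Hspa2 probe have filled diamonds, and the intervals of the other Hspa2 probe and of Hsf1, Calr3 and Hspa1l span 0.

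The heat shock factors showed no difference past the test. Hsf1 had 3 probes on mm7 chromosome 15, plus strand. The brightest (A_52_P647582, mm7 chr15:76583299-76583358) gave levels of 2.56, 2.54, 2.73 and 2.37 in wild type and of 2.29, 2.26, 2.33 and 2.48 in VRK1-deficient testes. VRK1-deficient replicate 4 lay above the lowest wild type array, and the other 3 below all of them. The difference was -0.21 (95% interval -0.47 to 0.05, limma adjusted p = 0.259). A_51_P102943, just before it on the transcript, had a difference of -0.19 (limma adjusted p = 0.264), whereas A_52_P487647, designed on the transcript Z49206, had one of 0.15 (limma adjusted p = 0.376). The first pair correlated with r = 0.929 over the 8 arrays and A_52_P487647 with neither of them (r = -0.166 and -0.237), so the Hsf1 probes disagreed in direction. Without wild type replicate 1 the differences of A_52_P647582, A_51_P102943 and A_52_P487647 were -0.21, -0.17 and 0.17, and none was called. For A_52_P487647 the difference was -0.02 with unscaled signals. Hsf2 was at the edge of detection. For probe A_51_P498132, 2 wild type arrays and 0 VRK1-deficient arrays were well above background, and for probe A_52_P479683 these were 2 and 1. The levels of the second were -5.77, -5.24, -6.26 and -5.43 in wild type and -5.98, -5.12, -5.61 and -5.29 in VRK1-deficient testes. These overlapped, and no fold is given at this brightness. Both Hsf2 probes are shown because they lie side by side on 1 spliced transcript and read neighbouring stretches of it. The capitals mark the 9 bases they share.
Hsf2 A_51_P498132 (mm7 chr10:57324141-57329341, plus strand): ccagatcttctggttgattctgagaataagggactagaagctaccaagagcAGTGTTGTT
Hsf2 A_52_P479683 (mm7 chr10:57329333-57329766, plus strand): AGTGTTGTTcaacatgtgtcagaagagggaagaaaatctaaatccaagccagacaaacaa
Each probe has 60 bases, and their mapped ends lie 5201 and 434 bases apart, so each crosses at least 1 intron.

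Promoter sequences in the RefSeq table (GRCm38.p6, 250 bases before to 50 after a start) were found for 5 of the 7 genes, with 6 starts in all. These were searched on both strands for heat shock elements, the sites that HSF1 and HSF2 bind, as TTCNNGAA and GAANNTTC, a pair of motifs that can overlap in a longer element. The first occurred in 8.52% and the second in 7.86% of 32851 promoters of this length, and neither occurred in the 6 member promoters. The cyclic AMP response element TGACGTCA, known from many genes of spermatids, occurred in 1.79% of all promoters and in 0 of the 6. The CCAAT box (CCAAT or, on the other strand, ATTGG) occurred in 37.4% of all promoters and in 5 of the 6, those of Calr3, Hsf2, Hspa1l and Hspa2. The 100 bases before the start are shown for Hspa2 and Hspa4l, the 2 genes with a promoter in the table whose level was lower without wild type replicate 1, with CCAAT boxes in capitals.
Hspa2 (GRCm38.p6 chr12:76404270-76404369, plus strand): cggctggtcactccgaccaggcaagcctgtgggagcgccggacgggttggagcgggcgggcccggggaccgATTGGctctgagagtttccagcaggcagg
Hspa4l (GRCm38.p6 chr3:40745513-40745612, plus strand): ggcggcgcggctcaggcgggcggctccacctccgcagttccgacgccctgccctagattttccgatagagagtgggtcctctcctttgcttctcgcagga
A match of letters is a description of the sequence and was not tested for binding.

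Clgn and Hspa4l had similar profiles over the arrays. Both were highest on wild type replicates 2 to 4 and lowest on VRK1-deficient replicate 1, and their likeness over the 8 arrays was r = 0.974, a value that includes the difference between genotypes. Among 26941 probes the profile of Clgn was most like those of Rec114 (r = 0.999), a gene of meiotic DNA break formation, Rfxap (0.996) and Lgals2 (0.995). That of Hspa4l was most like Ciapin1 (0.999), Zbtb32 (0.998) and Exd1 (0.998). The differences of these 6 genes ran from -0.46 for Rfxap to -1.45 for Zbtb32. None of them was called over the 8 arrays, and all 6 were without wild type replicate 1 (limma adjusted p from 0.00351 to 0.0119). Hspa2 was most like Hyou1 (r = 0.968), another HSP110 protein, of the endoplasmic reticulum, then Wdr47 (0.967) and Pikfyve (0.963). Wdr47 was called, with a difference of -0.68 (limma adjusted p = 0.0473), and not on leaving out any array other than wild type replicate 1 (limma adjusted p from 0.0598 to 0.147), where 3 to 68 of all tested probes were called. Calr3 was most like Ecm1 (0.955), Ggh (0.954) and Slc20a1 (0.953), Hspa1l like Tysnd1 (0.973), Ybx1 (0.973) and a probe with no gene symbol (0.967), and Hsf1 like Rab35 (0.966) and 2 probes with no gene symbol (0.968 and 0.965). These likenesses rest on 8 arrays and are a description.

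Markers of germ cells as a whole and of meiotic prophase had summed levels that ran in parallel with Clgn and Hspa4l over the arrays, whereas markers of undifferentiated spermatogonia were mixed in direction. In whole testis fewer cells of a type and less RNA per cell cannot be told apart. All 9 tested genes of a list of 10 pan germ cell markers were lower on average, with a median difference of -0.96 beside 0.04 over all tested probes. Of these, Tdrd1 (-1.11, limma adjusted p = 0.0498) and Tdrd9 (-1.47, limma adjusted p = 0.0471), both of the piRNA pathway, were called. All 9 were called without wild type replicate 1, beside 14.7% of all tested probes called as lower and 13.7% as higher. Their summed signal, in units of the 75th percentile, was 29.4, 59.8, 80.1 and 79.1 on wild type replicates 1 to 4 and 20.9, 34.9, 33.3 and 24.6 on the VRK1-deficient replicates, and Tex101 had the brightest probe. In this sum wild type replicate 1 was lower than VRK1-deficient replicates 2 and 3, but not in every gene, since Tdrd1 was at 2.83 on it and at 2.71 and 2.57 on these 2 arrays. The 12 meiotic prophase markers were all lower on average (median -1.15), 3 of them called (Sycp2, Stag3 and Mei1) and 11 without wild type replicate 1, and their sums were 20.3, 42.9, 49.5 and 51.9 in wild type and 14.2, 21.1, 19.4 and 14.6 in VRK1-deficient testes, with the brightest probe for Smc1b. Of 8 tested markers of differentiating spermatogonia 7 were lower, 1 of them called (Dmrtb1, -1.80, limma adjusted p = 0.0492). All 8 were called without that array, 7 as lower and 1 as higher. This list had sums of 108, 150, 196 and 166 in wild type and 88.9, 113, 117 and 93.5 in VRK1-deficient testes and the brightest probe for Uchl1. Of 13 tested markers of undifferentiated spermatogonia 7 were lower and 6 higher on average, with a median difference of -0.32. Sall4 (-0.99, limma adjusted p = 0.0491) and Lin28a (-1.12, limma adjusted p = 0.0498, with overlap) were called as lower and Bcl6b (0.61, limma adjusted p = 0.0497), a target of GDNF signalling in stem cells, as higher. Bcl6b did not pass with signals not scaled between arrays (0.43, limma adjusted p = 0.258) or with the normexp correction (0.50, limma adjusted p = 0.0538). Etv5 had the highest value of the list (0.66, limma adjusted p = 0.0892), and without wild type replicate 1 limma called 6 genes as lower and 4 as higher. The sums of this list were 18.9, 25.7, 30.9 and 20.2 in wild type and 15.6, 18.2, 14.9 and 14.2 in VRK1-deficient testes, Pou3f1 had the brightest probe, and Ret was not well above background on any array. Each call among these germ cell markers was lost on leaving out any array other than wild type replicate 1. Limma adjusted p then ran from 0.0696 for Sycp2 to 0.153 for Lin28a. Those fits called 3 to 68 of all tested probes, so the loss does not set these markers apart. Of 12 Sertoli cell markers 9 were higher and 3 lower on average, with a median difference of 0.33, and 0 were called. An unadjusted p under 0.05 was found for 7, of which Rhox5 (-1.08) and Cldn11 (-0.29) were lower and the others higher. Without wild type replicate 1 limma called 8 as higher and 1 as lower. The sums were 398, 303, 320 and 293 in wild type and 431, 369, 391 and 434 in VRK1-deficient testes, with the brightest probe for Clu. Of 10 spermatid markers Acrv1, Odf1 and Akap4 were not well above background on any array, and the 7 tested had a median difference of 0.00, with the brightest probe for Crem and sums between 1.01 and 1.27 on every array. None of the 7 was called by limma and 0 had an unadjusted p under 0.05, and without wild type replicate 1 limma called 1 as lower. The part of germ cell content in the differences of Clgn, Hspa4l and Hspa2 was not tested.

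**Figure D3:**
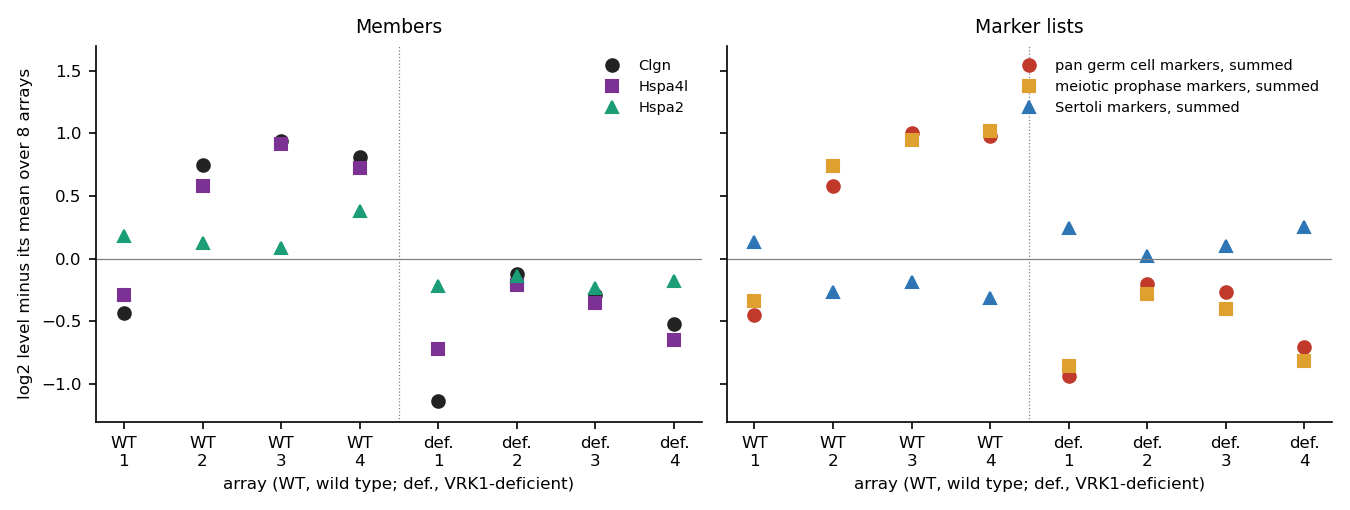
Log2 level on each array minus its mean over the 8 arrays (vertical axis, log2) for Clgn, Hspa4l and Hspa2 (left) and for the summed signals of 3 marker lists (right), with wild type arrays left of the dotted line. Clgn, Hspa4l and both germ cell lists share the low wild type replicate 1, Hspa2 does not, and the Sertoli sum has its 3 lowest values on wild type replicates 2 to 4.

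The wider chaperone system was followed through 9 lists of chaperones and their partners, which also hold Clgn, Calr3, Hspa2, Hspa1l and Hspa4l. Of 102 listed genes 94 were tested, 40 lower and 54 higher on average, with a median difference of 0.04, the same as over all probes. None of the 94 was called by limma or by the methods' t-test after adjustment, and 17 had an unadjusted p under 0.05, which 28.8% of all tested probes had. Differences lay between -1.03 (Clgn) and 0.59 (Hspb1), and 87 of 94 were within 0.5 of 0. Without wild type replicate 1, 18.1% of them were called, 9 lower and 8 higher, beside the 28.4% of all probes.

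Within the 14 tested HSP70 and HSP110 genes 6 were lower and 8 higher on average, with a median difference of 0.12. Hspa4l had the lowest value, and Hspa12a the highest (0.47, limma adjusted p = 0.162). Hyou1 went from 1.88 ± 0.22 to 1.34 ± 0.05 (SD, n = 4 each) without overlap, a difference of -0.54 (limma adjusted p = 0.0529). The other HSP110 proteins, Hspa4 and Hsph1, differed by -0.41 (limma adjusted p = 0.23) and -0.21 (limma adjusted p = 0.328). The common HSP70 proteins Hspa8 and Hspa5, of the cytosol and the endoplasmic reticulum, differed by 0.29 and 0.09. The heat-inducible Hspa1a differed by 0.27 on its brightest probe (limma adjusted p = 0.315) and by 0.20 to 0.52 over its 4 probes. Without wild type replicate 1 limma called the brightest probe (0.42, adjusted p = 0.047) and A_52_P52803 (0.60, adjusted p = 0.0105). It did not call A_52_P304902 (0.79, adjusted p = 0.0822) or A_52_P82741 (0.30, adjusted p = 0.156). No probe carries the symbol Hspa1b, and 2 of the 4 Hspa1a probes also list its accession, so those signals may hold both genes. In the endoplasmic reticulum cycle that Clgn and Calr3 belong to, 9 of 11 tested genes were higher on average and 2 lower. Over all tested probes 45.5% were lower. Several of the higher genes turned negative with unscaled signals, among them Calr3 (-0.13) and Pdia3 (-0.09), so this tally depends on the scaling. Canx, the ubiquitous relative of Clgn, had levels of 4.31, 4.15, 4.46 and 4.19 in wild type and of 4.66, 4.58, 4.75 and 4.60 in VRK1-deficient testes. These did not overlap, as for Hyou1 and for 16.7% of all tested probes. The difference of Canx was 0.37 (limma adjusted p = 0.0776), opposite in sign to that of Clgn, and 0.19 with unscaled signals (limma adjusted p = 0.649). Calr, the relative of Calr3, differed by 0.18 (limma adjusted p = 0.348), Pdia3, the disulfide isomerase that works with both, by 0.09, and Uggt2, which sends misfolded glycoproteins back, by 0.56 (limma adjusted p = 0.0776). Pdilt, the testis isomerase that works with calmegin, was well above background on 1 of 8 arrays. Of the 14 genes of the folding stress response 0 were called by limma and 3 had an unadjusted p under 0.05 (without wild type replicate 1 limma called 2 as lower and 1 as higher), with a median difference of 0.06, and Hyou1 and Canx had the lowest and highest values.

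Among 13 HSP90 genes and co-chaperones, Hsp90aa1 and Hsp90ab1 differed by -0.01 and 0.08. Fkbp6, a co-chaperone needed in meiosis, had levels of 3.96, 4.57, 4.88 and 4.71 in wild type and of 3.52, 3.87, 3.78 and 3.63 in VRK1-deficient testes. The difference was -0.83 (limma adjusted p = 0.0515), and wild type replicate 1 was again the lowest of its group. Fkbp5 had the highest value of that list (0.37). Of the HSP40 genes 17 were tested, with Dnajc5g lowest (-0.84, limma adjusted p = 0.0641, and -0.30 with the normexp correction), Dnaja4 highest (0.49, limma adjusted p = 0.218) and Dnajb1 at 0.16. Dnajb7, Dnajb13 and Dnajc5b were not well above background on any array. Of 9 tested small heat shock proteins, Hspb1 was highest at 0.59 (limma adjusted p = 0.0796) and Cryaa lowest at -0.20, which was 0.24 with the normexp correction. All of the 11 chaperonins lay between Cct8 (-0.18) and Cct4 (0.13). The exchange factors and ubiquitin partners of HSP70 ranged from Bag4 (-0.25) to Bag2 (0.42). The 13 tested heat-inducible targets of HSF1 had a median difference of 0.05, from Hsph1 to Hspb1, and their sum did not separate the genotypes, at 327, 313, 356 and 305 in wild type and 342, 341, 349 and 339 in VRK1-deficient testes.

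Calls were made in the other 3 lists, those of heat shock factors, of client proteins and of HSPA2 partners, and 5 genes passed. Hsf5, a heat shock factor of spermatocytes, fell from -2.04 ± 0.50 to -3.10 ± 0.20 (SD, n = 4 each), with levels of -2.72, -2.00, -1.55 and -1.89 in wild type and of -3.38, -2.91, -3.07 and -3.03 in VRK1-deficient testes. The genotypes did not overlap, as was also so for 16.7% of all tested probes, and the difference was -1.06 (limma adjusted p = 0.0491). Of the other factors, Hsf4 was well above background on 2 wild type arrays and on no VRK1-deficient array, and Hsf3 and Hsfy2 on none. Hsf2bp, the HSF2-binding protein that takes part in meiotic recombination, was read well above background on 2 wild type arrays and on none of the VRK1-deficient ones. Its levels were -6.13, -5.17, -5.67 and -4.76 in wild type and -7.22, -6.72, -7.45 and -7.61 in VRK1-deficient testes. It was not tested, and no fold is given. Hsbp1, the HSF1-binding protein, differed by 0.16. In the list of sperm surface proteins handled by these lectin chaperones, Adam5 rose from -4.90 ± 0.23 to -3.94 ± 0.14 (SD, n = 4 each; difference 0.96, limma adjusted p = 0.0336) without overlap, while Adam2 and Adam6a were not well above background on any array. Ly6k had the lowest value of these clients (-1.95, limma adjusted p = 0.0938), with -2.39 on wild type replicate 1 and -0.34 to 0.86 on wild type replicates 2 to 4. Among HSPA2 partners the synaptonemal complex gene Sycp2 fell by 1.67 (limma adjusted p = 0.0435) and Shcbp1l, whose product binds HSPA2 on the meiotic spindle, fell by 1.32 (limma adjusted p = 0.0368), without overlap. Cdk1, which HSPA2 helps to activate, rose by 0.48 (limma adjusted p = 0.0492), from 1.83, 1.67, 1.55 and 1.63 to 2.13, 2.27, 2.14 and 2.07. With the normexp correction the differences were smaller for Hsf5 (-0.55, limma adjusted p = 0.0599), Adam5 (0.57, limma adjusted p = 0.0308) and Sycp2 (-0.76, limma adjusted p = 0.0448). With unscaled signals Adam5 (0.78, limma adjusted p = 0.0543) and Cdk1 (0.30, limma adjusted p = 0.485) did not pass. The 5 calls came from 117 tested genes in the 12 lists (4.27%, beside 3.66% of all probes). All 5 were lost on leaving out each of the other arrays in turn (the 7 that remain beside wild type replicate 1). Limma adjusted p then ran from 0.0518 for Adam5 to 0.15 for Hsf5 and Cdk1. Those fits called 3 to 68 of all tested probes, so the loss does not set the 5 genes apart. Without wild type replicate 1, 30 of the 117 genes were called, 19 lower and 11 higher, or 25.6%, beside 28.4% of all tested probes. Among them were Hsf5 (-1.28), Adam5 (1.03), Cdk1 (0.53), Sycp2 (-1.98), Shcbp1l (-1.48), Canx (0.38), Hyou1 (-0.53) and Fkbp6 (-1.02).

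**Figure D4:**
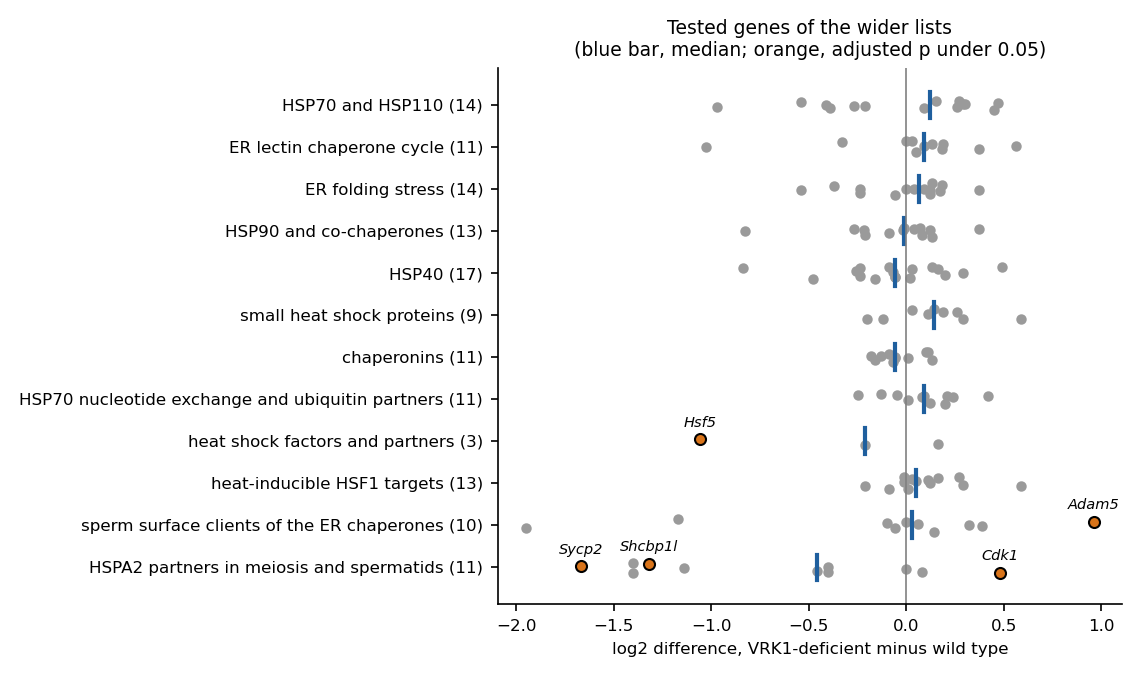
Difference of each tested gene (horizontal axis, VRK1-deficient minus wild type, log2) in the 12 lists, with the number tested in brackets, the median of each list as a blue bar and called genes in orange with their names. Hsf5, Sycp2 and Shcbp1l lie to the left, Adam5 and Cdk1 to the right, and the HSPA2 partners have the lowest median at -0.46.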

How the data were processed

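The authors hybridized RNA of 8 testis samples to 1-color Agilent arrays and, per the file headers, extracted them with Agilent Feature Extraction 9.5.3.1. The deposited values used are its processed signals, linear intensities with background subtracted and not scaled between arrays. The deposited value table held the same numbers, with 0 unequal values on each array. Of 45018 spots, 43379 were not controls. Outlier spots were left out, spots of 1 probe were averaged, and log2 intensities were taken relative to the array's 75th percentile. The 26948 probes that 4 or more of the 8 arrays read well above background entered 1 limma fit (version 3.58.1, R 4.3.3, moderated by eBayes), whose p-values were adjusted together by Benjamini-Hochberg and called under 0.05. The script was tested on simulated data. The brightest probe stands for a gene in counts.

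Positions are those of the array files (mm7), and where probes lie in exons or untranslated regions was not analysed here. Probes were named through a RefSeq table by accession (22951), symbol (6659) or synonym (3109), and 8455 kept the name of the files. The named genes are the members with every probe, Vrk1, the called genes and the lowest and highest of each list, a fixed set of common chaperones and HSF genes, the brightest marker of each cell type, genes too dim to be tested and the 3 probes most like each member. Members, lists and the array left out were chosen with earlier results of these data known. Replicate numbers were not treated as pairs: deviations of same-numbered arrays correlated at 0.47, 0.07, 0.19 and -0.14. Figures were made with matplotlib 3.10.9.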

Additional observations from a re-analysis of the deposited data

Results flagged for a closer look

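Wild type replicate 1 lay far from the other wild type arrays for 2 of the 14 probes. Clgn was at -0.86 on it, where wild type replicates 2 to 4 had 0.32 to 0.51, and the Hspa4l probe A_52_P667923 was at 0.63, where these had 1.51 to 1.64. The gap took up 0.865 and 0.875 of the range of the group. In all 28 groups of 4 arrays were checked, and chance marks about 1 in 20 such groups. On the brightest Hspa4l probe replicate 1 was also the lowest wild type array, with 1.49, and the next had 2.36.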

How the results depend on the processing

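The differences of Clgn, Hspa2 and Hspa4l were negative under all alternatives, with the brightest probes running from -1.35 to -0.78 for Clgn, from -0.57 to -0.32 for Hspa2 and from -1.33 to -0.62 for Hspa4l, and limma adjusted p from 0.00578 to 0.585, 0.0344 to 0.504 and 0.00351 to 0.549. With unscaled signals, which moved the median of all probes from 0.041 to -0.138, Calr3 went to -0.13, Hspa1l to -0.03 and Hsf1 probe A_52_P487647 to -0.02, and on slide 2 alone Calr3 was -0.13. The count of called member genes was 1 with unscaled signals (Hspa4l), 2 with a normexp background correction, 2 on slide 2 alone, 1 with an intensity trend and robust variances, and 0 to 3 with 1 array left out, the 3 being without wild type replicate 1. Over all probes the count of 986 went to 17 with no filter on dim probes, 641 with slide as a block, 3 on slide 1, 1061 on slide 2, 162 with the methods' t-test after adjustment (7066 at a p of at most 0.05), and 1915 with the intensity trend. With 1 array left out it was 7655 without wild type replicate 1 and 3 to 68 without any other array. The split of 535 lower and 451 higher was 340 and 409 with quantile normalization, 852 and 64 unscaled, and 644 and 768 with normexp, which moved the median to 0.118. Of the 12 lists 5 genes were called. That count was 11 with normexp, 0 with no filter, 8 with a filter on all 8 arrays, 0 on slide 1, 12 on slide 2, 0 with the t-test, 11 with the intensity trend, and 0 to 30 with 1 array left out. With the replicate number as a block the counts were 2275 probes, 2 member genes and 14 list genes. The labels do not pair the arrays, and 4 of 8 arrays correlated best with their own number in the other genotype. The causes of these shifts were not tested. Hsf2, Hsf4, Hsf2bp and Pdilt were too dim for a measured difference.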

Other observations

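Of the other cell types in the testis, 5 of 7 Leydig cell markers and 6 of 6 endothelial markers were higher on average, with median differences of 0.35 and 0.34 and none called by limma (3 and 2 had an unadjusted p under 0.05, and without wild type replicate 1 limma called 3 and 2 as higher). The brightest probes were those of Hsd3b1 and Cdh5. Of 6 peritubular myoid markers 1 was called, as lower, both with and without wild type replicate 1, with a median of -0.07 and the brightest probe for Acta2. That gene was Cnn1 (-0.99, limma adjusted p = 0.0445), chosen after its value was seen as the 1 call, and its adjusted p was 0.0661 to 0.147 on leaving out any array other than wild type replicate 1. Those fits called 3 to 68 of all tested probes. The macrophage list (5 tested, median 0.05, Csf1r brightest) and the erythroid list (3 tested, median -0.35, Hba-a1 brightest) had 0 calls, also without wild type replicate 1, and 0 genes with an unadjusted p under 0.05. The erythroid sum varied within both genotypes, from 32.9 to 78.8 in wild type and from 34.2 to 80 in VRK1-deficient testes.

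The immediate early genes, which respond to handling of tissue as well as to signals, had a median difference of 0.43 over 7 genes with 0 called by limma and 3 at an unadjusted p under 0.05 (without wild type replicate 1 limma called 1 as higher), and their sum was 13.3, 9.66, 9.62 and 6.58 on the wild type arrays and 14.5, 17.6, 14 and 11.7 on the VRK1-deficient arrays. Egr1 had the highest value (0.82, limma adjusted p = 0.106) and Fosb the lowest (-0.55, limma adjusted p = 0.427), which was 0.06 with a normexp background correction.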
